A study of Mus musculus with 4 samples.

Results

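The nuclear-encoded subunits of oxidative phosphorylation were read from RNA sequencing of FAP+ CD34+ and FAP+ CD34- cells, sorted by flow cytometry from pancreatic ductal adenocarcinoma of mice. The genes were chosen by name from the count table (names beginning with Nduf, a letter A, B, C, S or V and a digit, with Sdh and a letter A to D, with Uqcr, with Cox4 to Cox8, or with Atp5, leaving out Ndufa4l2), which gave 84 of 22609 genes. All tumours arose spontaneously in a C57BL/6 model, and all cells were sorted for FAP, a protease on the surface of tumour fibroblasts. The FAP+ cells were divided by the presence of CD34, a sialomucin that some fibroblasts share with endothelial cells, and each fraction was sequenced as 2 biological replicates. The alleles that drive the tumours, the age of the mice, any treatment and the number of animals per library are not stated in the labels, so the p-values measure the spread between these libraries, which may be technical in part.

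The 5 complexes of oxidative phosphorylation sit in the inner mitochondrial membrane. Complex I (NADH dehydrogenase) and complex II (succinate dehydrogenase) feed electrons to ubiquinone, complex III passes them to cytochrome c, complex IV (cytochrome c oxidase) passes them to oxygen, and complex V (ATP synthase) uses the proton gradient so formed to make ATP. Most subunits are encoded in the nucleus, and several of the catalytic ones in mitochondrial DNA, which were not analysed here because no gene of that list was matched by name. By name the 84 members comprised 35 genes of complex I, 4 of complex II, 8 of complex III, 20 of complex IV and 17 of complex V. Subunits with other names, such as Ndufab1 of complex I and Cyc1 of complex III, are not members, so sums and medians do not cover whole complexes. Ndufa4 carries a complex I name but belongs to complex IV. Of the 84, 80 encode subunits. The others match by name only: Cox7a2l, a supercomplex assembly factor, Cox4nb, the neighbour of Cox4i1, and Atp5s and Atp5sl, which encode factor B and its relative.

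The libraries held from 10322354 to 14633561 counts. Levels are given as CPM, the count scaled to the library total, and log2 fold changes as CD34+ over CD34- after TMM scaling. A gene passed at an adjusted p of 0.05 over the 13875 genes tested with edgeR's quasi-likelihood test. Cd34 was 143 and 293 CPM in CD34+ libraries, against 18.3 and 23.9 CPM in CD34- libraries, and Fap was 79 and 39.8 CPM in CD34+ libraries, against 142 and 136 CPM in CD34- libraries. Fibroblast markers (8 genes) summed to 39657 to 39707 CPM in CD34+ libraries, against 36851 to 40467 CPM in CD34- libraries. Most of this sum came from the collagen genes Col1a1, Col1a2 and Col3a1. Sums for markers of other cells were far lower, and some moved with CD34. Gene by gene the gap was not always wide. Pdgfra, the fibroblast marker of lowest mean in each group, ranged from 234 to 324 CPM across libraries. The epithelial markers Krt8 and Krt18 ranged from 142 to 263 CPM and from 106 to 266 CPM. The other epithelial markers reached at most 113 CPM (Krt7). Endothelial markers summed to 59.6 to 74.6 CPM in CD34+ libraries, against 24.8 to 25.5 CPM in CD34- libraries (6 of 7 positive), and myeloid markers to 101 to 132 CPM in CD34+ libraries, against 55.2 to 68.5 CPM in CD34- libraries (8 of 8 positive). Mesothelial markers summed to 226 to 394 CPM in CD34+ libraries, against 150 to 245 CPM in CD34- libraries (4 of 5 positive). Pericyte markers summed to 290 to 380 CPM in CD34+ libraries, against 408 to 520 CPM in CD34- libraries (3 of 7 positive). Within this list Rgs5 was 2.13 and 7.33 CPM in CD34+ libraries, against 45.5 and 89.7 CPM in CD34- libraries, Mcam was 27.9 and 16.5 CPM in CD34+ libraries, against 103 and 103 CPM in CD34- libraries, and Higd1b, picked after its values were seen, was 0.0969 and 0.513 CPM in CD34+ libraries, against 4.69 and 4.17 CPM in CD34- libraries. The other genes of the list, Kcnj8, Notch3, Abcc9 and Cspg4, overlapped between the groups, with log2 fold changes of 0.57, 0.40, 0.24 and -0.16. Epithelial markers summed to 451 to 712 CPM in CD34+ libraries, against 345 to 684 CPM in CD34- libraries (4 of 6 positive), and lymphoid markers to 2.78 to 21.3 CPM in CD34+ libraries, against 0.615 to 1.21 CPM in CD34- libraries (0 of 6 passed the filter on low counts). Most of the 21.3 CPM was Cd3e, at 19 CPM in CD34+ replicate 1 and 0.293 CPM in replicate 2. Cd3d was 0.0969 CPM in CD34+ replicate 1. Among the markers found in the table, 0 were at a count of 0 in all 4 libraries. The part of these cells in the results was not tested, and fewer cells of a type cannot be told apart from less RNA per cell in bulk libraries.

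Promoters are shown for 4 genes picked by their values, as windows of 300 bases from 250 before to 50 after the start site (RefSeq, GRCm38.p6). Uqcr11, Ndufa5 and Atp5k lay higher in CD34+ cells at an unadjusted p under 0.05, and Atp5b has the highest RPKM of the members that lay lower. Capitals mark matches on either strand to GCGCNTGCG (a form of the site of NRF1, a regulator of nuclear genes for mitochondria, taken after a longer form had been counted), CCGGAAG (the core of sites of ETS factors such as GABPA) or AAGATGGCG (a form of the YY1 site). The windows are chr10:80406772-80407071 on the minus strand for Uqcr11, chr6:24527477-24527776 on the minus strand for Ndufa5 (the first of its 2 windows), chr5:108434350-108434649 on the minus strand for Atp5k and chr10:128083057-128083356 on the plus strand for Atp5b.
Uqcr11: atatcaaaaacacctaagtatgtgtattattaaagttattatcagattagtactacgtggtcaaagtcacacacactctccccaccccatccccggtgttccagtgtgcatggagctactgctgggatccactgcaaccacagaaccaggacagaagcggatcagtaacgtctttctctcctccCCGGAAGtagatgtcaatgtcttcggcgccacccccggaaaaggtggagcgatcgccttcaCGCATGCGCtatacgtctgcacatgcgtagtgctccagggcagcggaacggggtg
Ndufa5: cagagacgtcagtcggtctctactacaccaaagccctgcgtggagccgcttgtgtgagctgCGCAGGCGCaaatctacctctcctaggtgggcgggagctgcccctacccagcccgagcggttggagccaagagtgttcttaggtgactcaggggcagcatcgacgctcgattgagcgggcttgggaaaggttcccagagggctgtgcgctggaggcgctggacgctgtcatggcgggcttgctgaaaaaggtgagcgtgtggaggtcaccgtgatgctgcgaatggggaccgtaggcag
Atp5k: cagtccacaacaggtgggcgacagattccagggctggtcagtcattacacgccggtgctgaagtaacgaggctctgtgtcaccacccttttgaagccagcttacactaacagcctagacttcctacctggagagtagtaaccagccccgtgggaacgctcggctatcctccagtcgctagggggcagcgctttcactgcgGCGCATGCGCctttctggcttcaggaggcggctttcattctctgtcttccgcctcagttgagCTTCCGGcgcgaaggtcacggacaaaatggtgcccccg
Atp5b: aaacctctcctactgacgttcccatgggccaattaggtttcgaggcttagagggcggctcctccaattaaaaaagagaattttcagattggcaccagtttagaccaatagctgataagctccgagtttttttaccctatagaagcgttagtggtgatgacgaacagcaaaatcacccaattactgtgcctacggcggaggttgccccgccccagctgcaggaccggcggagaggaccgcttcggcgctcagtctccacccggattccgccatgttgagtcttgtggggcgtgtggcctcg

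Uqcr11 held 1 GCGCNTGCG and 1 CCGGAAG match, Ndufa5 1 GCGCNTGCG match, and Atp5k 2 overlapping GCGCNTGCG matches and 1 CCGGAAG match. Atp5b held none of the 3 motifs, but 5 CCAAT and 2 GGGCGG (GC box) matches. Ndufa5 also held 1 GGGCGG match, and Uqcr11 and Atp5k held no GGGCGG or CCAAT match. The 4 windows do not stand for the members by direction: GCGCNTGCG was found in 18 of the 57 members with a positive log2 fold change and in 5 of the 20 with a negative one, Atp5c1 and Sdha among them. Members without a window were counted there as having no match, so these fractions are not shares of the promoters searched. A window was given for 69 of the 84 members, 75 windows in all. GCGCNTGCG was found in 26 of these (34.7%), against 6.31% of the 32851 promoter windows of the whole table. CCGGAAG was found in 16 member windows (21.3%), against 8.86% of all windows, and AAGATGGCG in 9 (12%), against 1.4% of all windows. The general elements were closer to their share elsewhere, with GGGCGG in 38.7% of member windows against 35.7% of all, CCAAT in 42.7% against 37.4%, and TATAAA in 10.7% against 13.6%. These are counts of letters in a window and not of bound sites.

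Summed over all 84 genes, the members took 0.804% and 0.746% of counts in CD34+ libraries, against 0.803% and 0.683% in CD34- libraries, so the totals overlapped. Sums by complex follow, and differences between complexes were not tested. Complex I summed to 2293 and 2132 CPM in CD34+ libraries, against 1989 and 1718 CPM in CD34- libraries, without overlap. Complex IV summed to 1850 and 1575 CPM in CD34+ libraries, against 1577 and 1288 CPM in CD34- libraries, overlapping by a narrow margin. This sum includes Cox7a2l and Cox4nb, which are not subunits. Cox7a2l was 137 and 137 CPM in CD34+ libraries, against 179 and 137 CPM in CD34- libraries. Cox4nb was 38.2 and 32.2 CPM in CD34+ libraries, against 48 and 33.9 CPM in CD34- libraries. With both left out, the complex IV sums lay higher in CD34+ libraries without overlap. Complex V summed to 2757 and 2571 CPM in CD34+ libraries, against 3228 and 2742 CPM in CD34- libraries, and its lowest libraries were the CD34+ replicate 2 and the CD34- replicate 2. Complex II averaged 407 ± 34.5 CPM in CD34+ libraries and 438 ± 17.2 CPM in CD34- libraries, and complex III averaged 752 ± 6.92 CPM in CD34+ libraries and 720 ± 87.1 CPM in CD34- libraries (SD, n = 2 each), both with overlap.

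**Figure D1:**
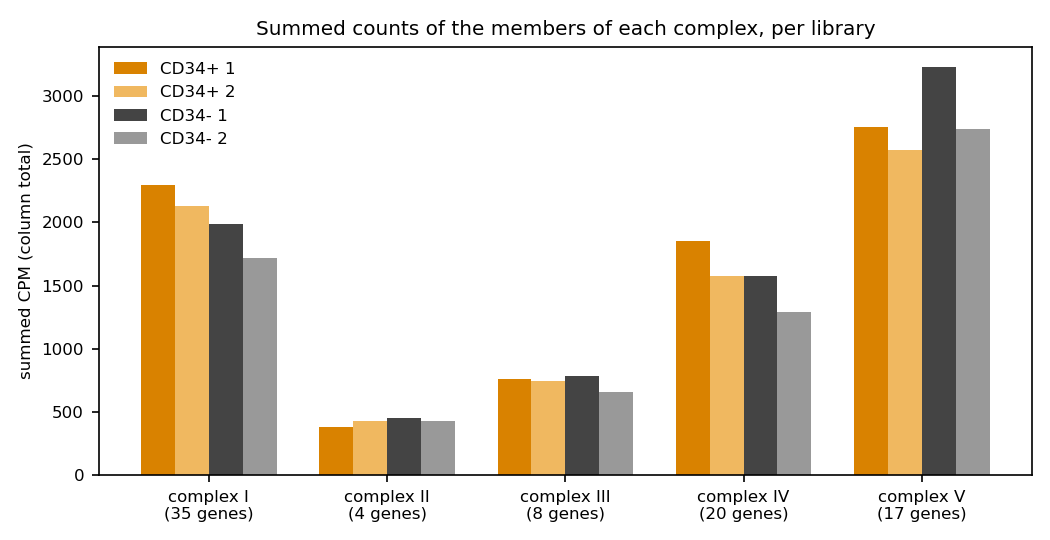
Summed CPM (vertical axis) of the members of each complex (horizontal axis), 1 bar per library, CD34+ libraries left of CD34- libraries. Complex I is higher in both CD34+ libraries (2293 and 2132 CPM) than in both CD34- libraries (1989 and 1718 CPM), and the other 4 complexes overlap. Complex IV overlaps only with Cox7a2l and Cox4nb, which are not subunits, in its sum.

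No single member passed the test. Of 84 members, 77 passed the filter on low counts, and edgeR called 0 higher and 0 lower, as it did among all genes tested (0% in each direction). DESeq2 and limma voom also called 0 members, where DESeq2 called 2.85% of all genes tested higher and 1.3% lower and limma voom 0% in each direction. The members called were likewise 0 with the replicate block (0.281% of all genes higher, 0.166% lower), with no filter (0.924% higher, 0.653% lower) and on log2 RPKM + 0.1 (0.144% higher, 0.223% lower). At an unadjusted p under 0.05 (edgeR), 11 members lay higher in CD34+ cells (14.3%, against 9.81% of all genes tested) and 1 lay lower (1.3%, against 6.65%). The CPM of the groups did not overlap for 38 members higher in CD34+ cells (49.4%, against 23.4% of all genes tested) and for 9 lower (11.7%, against 26.6%).

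The log2 fold change was positive for 57 of 77 members (74%, against 48.7% of all genes tested), but for 25 of 77 on the authors' log2 RPKM + 1 scale and 14 on log2 FPKM + 1. On the estimated fragment counts behind the FPKM, with TMM scaling, it was positive for 54. Its median was 0.22 over the members and -0.02 over all genes tested. For the members it turned to -0.18 on log2 RPKM + 1 and to -0.23 on log2 FPKM + 1. The median of all genes tested was itself at -0.31 on both of these scales, below that of the members. Single genes ran from -0.71 (Atp5a1) to 1.16 (Cox6b2). By complex the median was 0.29 for complex I, -0.02 for complex II, 0.12 for complex III, 0.30 for complex IV and 0.20 for complex V, and on log2 RPKM + 1 it was -0.12, -0.43, -0.29, -0.11 and -0.22 in that order.

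**Figure D2:**
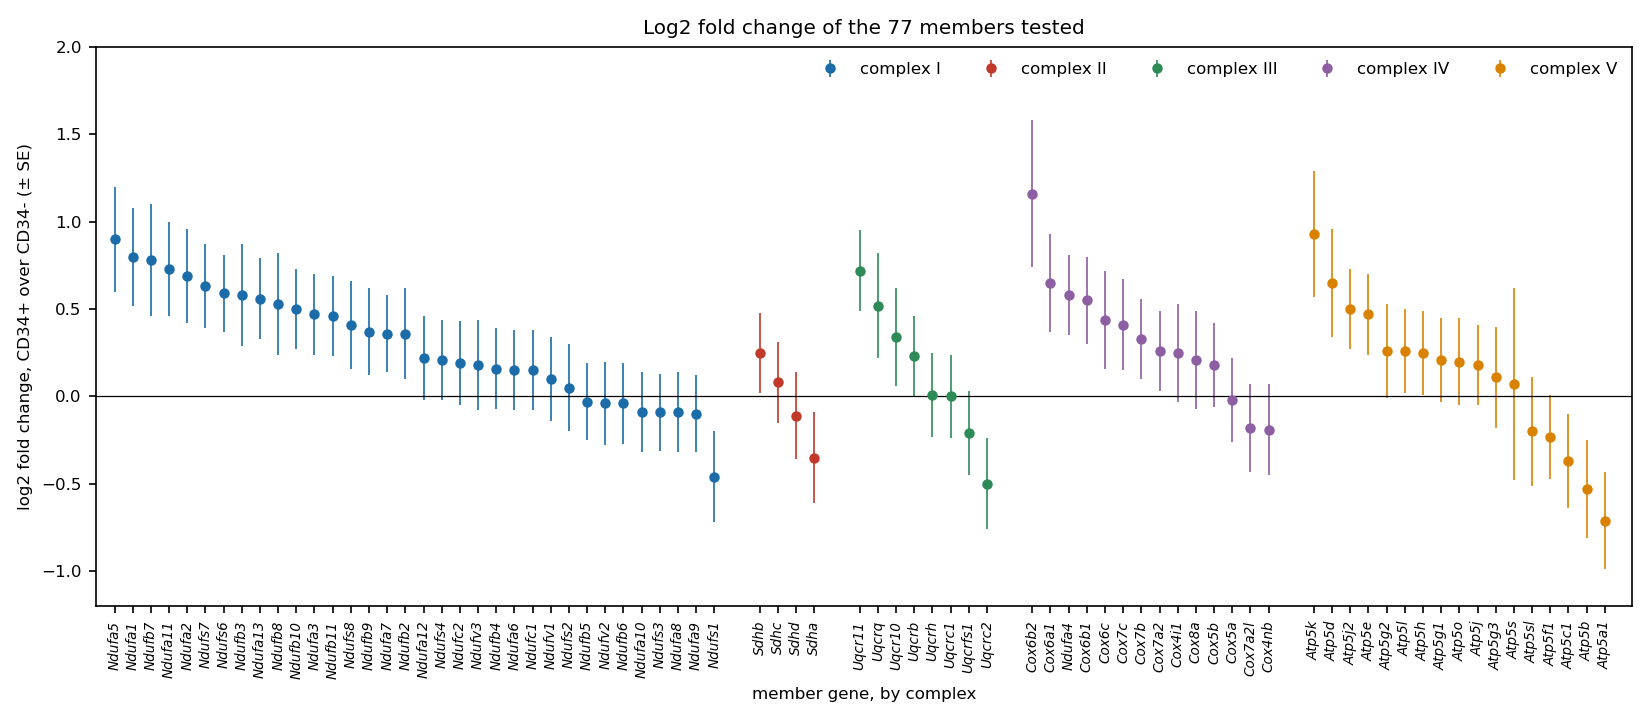
Log2 fold change of CD34+ over CD34- (vertical axis) with its standard error for each of the 77 members tested, ordered within each complex (horizontal axis, 1 point per gene). With TMM scaling 57 of 77 members lie above 0 (25 on log2 RPKM + 1, where the median of all genes tested was -0.31). Ndufs1, Sdha, Uqcrc2 and Atp5a1 lie at the low ends of complexes I, II, III and V.

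Complex I has 7 nuclear-encoded core subunits, which carry the flavin and the iron-sulphur clusters, and a shell of accessory subunits. Of the 27 accessory genes tested, 22 were positive (median log2 fold change 0.36), and 17 lay higher in CD34+ cells without overlap (63%, against 23.4% of all genes tested and 36.7% of the shortest 10% of them) and 1 lower (3.7%, against 26.6% and 10.9%). Ndufa5 was 52.6 and 33.3 CPM in CD34+ libraries, against 24.3 and 22.6 CPM in CD34- libraries, with a log2 fold change of 0.90 ± 0.30 (SE; edgeR, adjusted p = 0.257). Ndufa1, which is needed to build the membrane arm, was 70.6 and 48.5 CPM in CD34+ libraries, against 36.2 and 33.1 CPM in CD34- libraries, with a log2 fold change of 0.80 ± 0.28 (SE; edgeR, adjusted p = 0.26). For both genes the groups did not overlap and CD34+ replicate 1 stood highest. Without it the log2 fold change was 0.50 for Ndufa5 and 0.48 for Ndufa1, and on log2 RPKM + 1 with all libraries it was 0.43 and 0.36. The complex I genes of highest deposited RPKM (the read count scaled to gene length and depth) were Ndufa2 and Ndufa3. The library totals behind RPKM are not stated, so these levels rank genes and do not compare the groups. Ndufa2 was 119 and 126 RPKM in CD34+ libraries, against 119 and 85.6 RPKM in CD34- libraries, and Ndufa3 was 102 and 115 RPKM in CD34+ libraries, against 109 and 99.8 RPKM in CD34- libraries. By CPM both lay higher in CD34+ cells without overlap, with log2 fold changes of 0.69 for Ndufa2 and 0.47 for Ndufa3, but Ndufa3 was at -0.04 on log2 FPKM + 1. Ndufs6, Ndufs7, Ndufa11 and Ndufb7, named after their values were seen because their unadjusted p was under 0.05, had log2 fold changes of 0.59, 0.63, 0.73 and 0.78 with adjusted p from 0.282 to 0.301 (edgeR). On log2 FPKM + 1 they were at 0.10, -0.06, 0.01 and 0.17, and without CD34+ replicate 1 Ndufa11 was at 0.47 and Ndufb7 at 0.43.

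The 7 core subunits of complex I were spread around 0, with a median log2 fold change of 0.05 and 4 of 7 positive. Ndufs1, the largest of them, was 34.7 and 49.2 CPM in CD34+ libraries, against 61.2 and 55.5 CPM in CD34- libraries, with a log2 fold change of -0.46 ± 0.26 (SE; edgeR, adjusted p = 0.411). The groups did not overlap, and CD34+ replicate 1 was the lowest library. Without it the log2 fold change was -0.25, and without CD34+ replicate 2 it was -0.73. Ndufv1, the flavin subunit that takes electrons from NADH, was 134 and 115 CPM in CD34+ libraries, against 129 and 107 CPM in CD34- libraries, with overlap. Ndufa9, an accessory subunit, was 58.3 and 59.4 CPM in CD34+ libraries, against 67.1 and 61 CPM in CD34- libraries, slightly lower without overlap. The difference between core and accessory subunits was not tested. Ndufs5 was at a count of 0 in all libraries but was listed at 18.6 and 0 FPKM in CD34+ libraries, against 26.9 and 32.6 FPKM in CD34- libraries, so its level is uncertain.

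Complex II, whose 4 subunits are all nuclear-encoded, also works in the citric acid cycle. Its flavoprotein gene Sdha was 124 and 160 CPM in CD34+ libraries, against 180 and 187 CPM in CD34- libraries, with a log2 fold change of -0.35 ± 0.26 (SE; edgeR, adjusted p = 0.517), without overlap. It was -0.21 without CD34+ replicate 1 and -0.55 without CD34+ replicate 2. The iron-sulphur subunit gene Sdhb was 98.5 and 93.6 CPM in CD34+ libraries, against 89.9 and 74.2 CPM in CD34- libraries, with a log2 fold change of 0.25 ± 0.23 (SE; edgeR, adjusted p = 0.601) that turned to -0.16 on log2 RPKM + 1. The membrane anchor gene Sdhc averaged 85.4 ± 3.73 CPM in CD34+ libraries and 81.7 ± 1.35 CPM in CD34- libraries, and the other anchor gene, Sdhd, averaged 83.2 ± 16.5 CPM in CD34+ libraries and 91.3 ± 9.71 CPM in CD34- libraries (SD, n = 2 each).

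Complex III held the member of lowest p, Uqcr11, a small accessory subunit. It was 66.1 and 62.2 CPM in CD34+ libraries, against 42.7 and 36.6 CPM in CD34- libraries, with a log2 fold change of 0.72 ± 0.23 (SE; edgeR, adjusted p = 0.235). By CPM the groups were well apart and the replicates close to each other. By FPKM the groups overlapped, at 140 and 196 in CD34+ libraries, against 154 and 159 in CD34- libraries, and the log2 fold change was 0.30 on log2 RPKM + 1 and 0.08 on log2 FPKM + 1. Uqcrq, another small subunit, was 126 and 93 CPM in CD34+ libraries, against 94.9 and 61.7 CPM in CD34- libraries, overlapping, with a log2 fold change of 0.52 ± 0.30 (SE) that was 0.25 without CD34+ replicate 1, 0.30 without CD34- replicate 2 and -0.09 on log2 FPKM + 1. On the other side was Uqcrc2, a large matrix-facing core protein, at 63.8 and 88.4 CPM in CD34+ libraries, against 107 and 111 CPM in CD34- libraries, with a log2 fold change of -0.50 ± 0.26 (SE; edgeR, adjusted p = 0.386), without overlap. It was -0.31 without CD34+ replicate 1 and -0.76 without CD34+ replicate 2. Its partner Uqcrc1 averaged 166 ± 5.69 CPM in CD34+ libraries and 168 ± 19.4 CPM in CD34- libraries (SD, n = 2 each). Uqcrfs1, the Rieske iron-sulphur protein, averaged 59.2 ± 5.37 CPM in CD34+ libraries and 69.6 ± 12.7 CPM in CD34- libraries (SD, n = 2 each). The complex III gene of highest RPKM was Uqcrh, the hinge protein, at 127 and 184 RPKM in CD34+ libraries, against 218 and 186 RPKM in CD34- libraries. By CPM it overlapped between the groups, at 123 and 138 in CD34+ libraries, against 145 and 118 in CD34- libraries.

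The nuclear-encoded subunits of complex IV surround a catalytic core made in the mitochondrion, and several exist as a general form and a form typical of muscle, lung or testis. The general forms carried nearly all counts here. Cox4i1, the first of the complex by RPKM, was 273 and 334 RPKM in CD34+ libraries, against 394 and 286 RPKM in CD34- libraries. By CPM Cox4i1 was 331 and 312 in CD34+ libraries, against 327 and 225 in CD34- libraries. Its lung form Cox4i2 had 3 and 3 counts in CD34+ libraries, against 8 and 3 in CD34- libraries. Its share of the Cox4i pair was 0.0878% (95% exact Clopper-Pearson interval 0.0181 to 0.257) and 0.0703% (0.0145 to 0.205) in CD34+ libraries, against 0.185% (0.0797 to 0.363) and 0.0911% (0.0188 to 0.266) in CD34- libraries. These intervals, which cover counting error only, overlapped throughout. The muscle form Cox6a2 had 4 and 4 counts in CD34+ libraries, against 0 and 1 in CD34- libraries, and Cox7a1 had 0 and 5 in CD34+ libraries, against 3 and 4 in CD34- libraries, where its general partner Cox7a2 averaged 56.9 ± 2.73 CPM in CD34+ libraries and 48 ± 0.857 CPM in CD34- libraries (SD, n = 2 each). Cox8b was at 0 in all 4 libraries, where 3 counts, taken as the limit that a count of 0 allows, would be at most 0.107% of the Cox8a count and the exact interval reaches up to 0.131% of the pair. The testis form Cox8c had 1 and 0 counts in CD34+ libraries, against 0 and 0 in CD34- libraries, and Cox7b2 had 1 and 2 in CD34+ libraries, against 0 and 0 in CD34- libraries. These 6 genes and Ndufs5 were the 7 members that did not pass the filter.

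The testis form Cox6b2 did pass. It was 16.2 and 11.1 CPM in CD34+ libraries, against 4.84 and 7.38 CPM in CD34- libraries, with a log2 fold change of 1.16 ± 0.42 (SE; edgeR, adjusted p = 0.273). Cox6b2 made up 14.8% (12.8 to 17) and 12.6% (10.8 to 14.7) of the counts of the Cox6b pair in CD34+ libraries, against 7.71% (5.99 to 9.74) and 11% (9.07 to 13.1) in CD34- libraries. CD34- replicate 1 was the low library: the intervals of both CD34+ libraries overlapped that of CD34- replicate 2 and lay above that of CD34- replicate 1. The general form Cox6b1 averaged 85.1 ± 11.5 CPM in CD34+ libraries and 59 ± 1.45 CPM in CD34- libraries (SD, n = 2 each), a log2 fold change of 0.55. Cox6a1 was 267 and 202 CPM in CD34+ libraries, against 170 and 134 CPM in CD34- libraries, without overlap, and its log2 fold change of 0.65 ± 0.28 (SE; edgeR, adjusted p = 0.32) was 0.40 without CD34+ replicate 1 and -0.01 on log2 FPKM + 1. Ndufa4 was 84.6 and 89.7 CPM in CD34+ libraries, against 65.7 and 53.2 CPM in CD34- libraries, with a log2 fold change of 0.58 ± 0.23 (SE; edgeR, adjusted p = 0.294), also without overlap. Cox8a, Cox5a, Cox4i1, Cox7a2l and Cox4nb overlapped between the groups. Cox8a, second in the complex by RPKM, was 274 and 205 CPM in CD34+ libraries, against 230 and 193 CPM in CD34- libraries, and Cox7a2l was 137 and 137 CPM in CD34+ libraries, against 179 and 137 CPM in CD34- libraries.

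In complex V the genes of the F1 head, the part that makes ATP, lay on opposite sides. Atp5a1, encoding the alpha subunit, was 411 and 370 CPM in CD34+ libraries, against 696 and 606 CPM in CD34- libraries, with a log2 fold change of -0.71 ± 0.28 (SE; edgeR, adjusted p = 0.291). Atp5b, encoding the catalytic beta subunit and first of complex V by RPKM, was 543 and 539 CPM in CD34+ libraries, against 862 and 724 CPM in CD34- libraries, with a log2 fold change of -0.53 ± 0.28 (SE; edgeR, adjusted p = 0.395). For both, each CD34+ library lay below each CD34- library. The other 3 F1 genes complete the head and were added after their values were seen. Atp5c1, the gamma stalk, was 123 and 171 CPM in CD34+ libraries, against 201 and 186 CPM in CD34- libraries, with a log2 fold change of -0.37 ± 0.27 (SE) that was -0.18 without CD34+ replicate 1 and -0.63 without CD34+ replicate 2. Atp5d, the delta subunit, was 283 and 182 CPM in CD34+ libraries, against 165 and 137 CPM in CD34- libraries, with a log2 fold change of 0.65 ± 0.31 (SE) that was 0.26 without CD34+ replicate 1 and -0.09 on log2 FPKM + 1. Atp5e, the epsilon subunit, was 124 and 122 CPM in CD34+ libraries, against 99.9 and 80.6 CPM in CD34- libraries, with a log2 fold change of 0.47 ± 0.23 (SE) that was also -0.09 on log2 FPKM + 1. By CPM 3 of the 5 lay lower without overlap (60%, against 26.6% of all genes tested) and 2 higher (40%, against 23.4%).

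**Figure D3:**
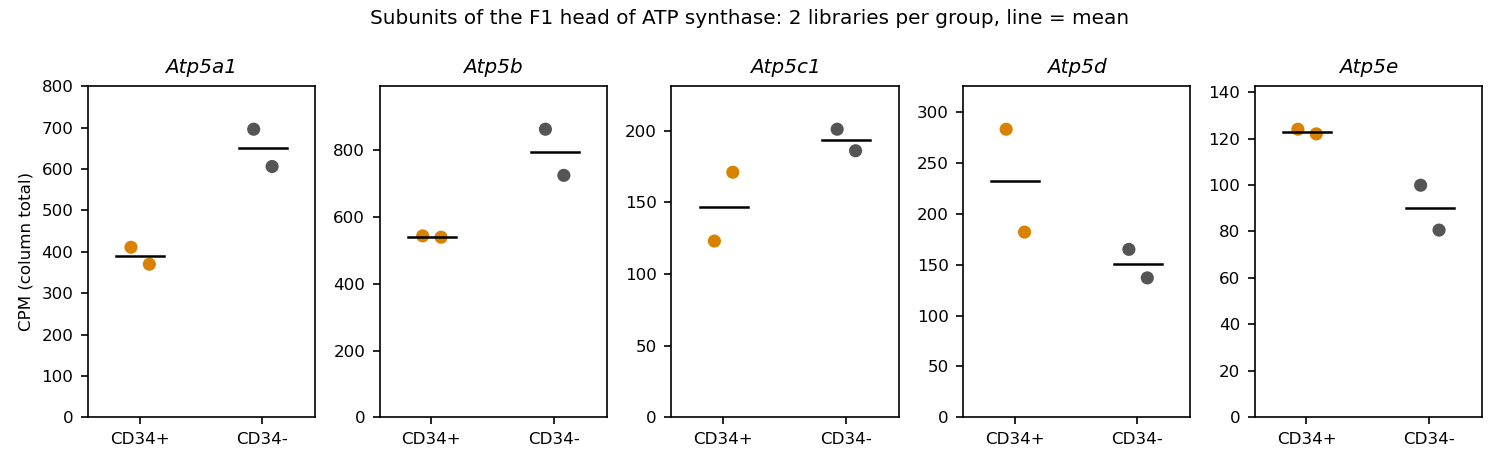
CPM (vertical axes, each from 0) of the 5 genes of the F1 head in each library, CD34+ left of CD34-, with a line at the mean of 2 libraries. By CPM, Atp5a1, Atp5b and Atp5c1 are lower in both CD34+ libraries and Atp5d and Atp5e are higher (both -0.09 in log2 fold change on log2 FPKM + 1), and the Atp5d values of CD34+ cells (283 and 182 CPM) lie far apart.

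A ratio of 2 genes within a library does not depend on its depth. Atp5a1 over Atp5d, a pair picked after the values were seen, was 0.556 and 0.78 by RPKM in CD34+ libraries, against 1.62 and 1.69 in CD34- libraries. Atp5b over Atp5e, picked in the same way, was 0.961 and 0.972 by RPKM in CD34+ libraries, against 1.9 and 1.98 in CD34- libraries. Atp5a1 and Atp5b, the lower-lying members of highest RPKM, together made up 11.9% and 12.2% of the summed member CPM in CD34+ libraries, against 19.4% and 19.5% in CD34- libraries.

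Among the membrane subunits, Atp5k, encoding subunit e, which helps the enzyme to dimerise, was 79 and 40.8 CPM in CD34+ libraries, against 34.3 and 29.9 CPM in CD34- libraries, with a log2 fold change of 0.93 ± 0.36 (SE; edgeR, adjusted p = 0.29). The groups did not overlap, but CD34+ replicate 1 was far above replicate 2, and without it the log2 fold change was 0.34. Atp5j2, encoding subunit f, was 94.4 and 92.2 CPM in CD34+ libraries, against 71.9 and 61.8 CPM in CD34- libraries, with a log2 fold change of 0.50 ± 0.23 (SE; edgeR, adjusted p = 0.33). The proton-carrying c ring is built from a single mature protein encoded by Atp5g1, Atp5g2 and Atp5g3. Atp5g3 gave most of their counts, 59.5% and 51.4% in CD34+ libraries, against 56.2% and 60.2% in CD34- libraries. Atp5g2 gave 26.7% and 31.9% in CD34+ libraries, against 29% and 25.1% in CD34- libraries, and Atp5g1 gave 13.8% and 16.7% in CD34+ libraries, against 14.8% and 14.7% in CD34- libraries. All 3 shares overlapped between the groups. Of the 4 genes of the peripheral stalk, which holds the head in place, 2 lay higher in CD34+ cells without overlap (50%, against 23.4% of all genes tested), 1 lower (25%, against 26.6%) and 1 overlapped.

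Gene length moved with these values. It was read from the ratio of deposited counts to deposited RPKM and set relative to the median gene tested, a measure taken up after the values were seen. The members were short, at a median of 0.239 of the median gene. Across the 77 members tested, log2 fold change and length had a Spearman correlation of -0.64, a description only, since all points come from the same 4 libraries. For log2 CPM ratios it was -0.63 and -0.61 for CD34+ replicate 1 over CD34- replicates 1 and 2, and -0.51 and -0.54 for CD34+ replicate 2 over the same libraries. Between replicates it was -0.38 for CD34+ replicate 1 over 2 and -0.09 for CD34- replicate 1 over 2. Over all genes tested the correlation was -0.01, but the relation was curved, with a median log2 fold change of 0.25 in the shortest 10% of genes, -0.14 just below the median length and 0.18 in the longest 10%. The shortest 10% held 54 of the 77 members, with a median log2 fold change of 0.35, against 0.24 over the 1335 other genes of that 10%. The lengths were not matched, since these members had a median length of 0.195 and the other genes 0.307. With the length trend described below taken out, the medians were -0.05 and -0.01. Among those 54 members 63% lay higher by CPM without overlap, against 35.7% of the other genes of that 10%. The 23 longer members had a median of -0.10, and 9 of them were positive.

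**Figure D4:**
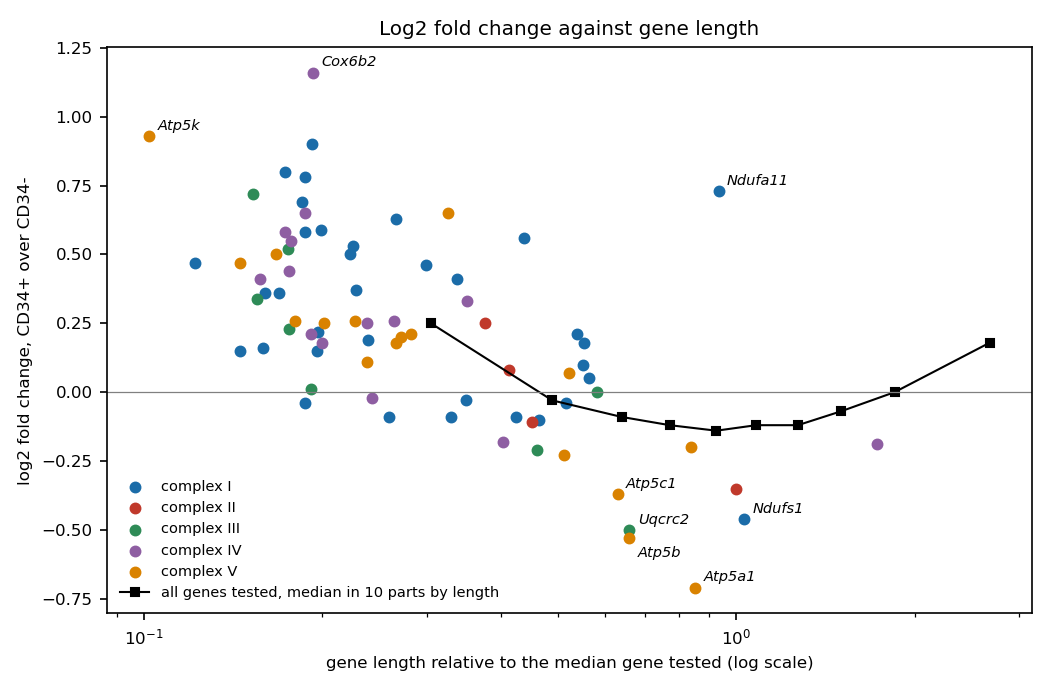
Log2 fold change of CD34+ over CD34- (vertical axis) against gene length relative to the median gene tested (horizontal log axis) for the 77 members, coloured by complex, with the median of all 13875 genes tested in 10 equal parts by length in black. The 54 members among the shortest 10% of genes have a median of 0.35, and Atp5a1, Atp5b, Uqcrc2 and Ndufs1, which are longer, lie below the black line. On log2 RPKM + 1 the members as a whole turn to a median of -0.18 and all genes tested to -0.31.

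With a length trend in each library taken out, an alternative added after seeing the data, the median log2 fold change of the members was -0.06, and 32 of 77 were positive. By complex it was then 0.07, -0.07, -0.19, -0.04 and -0.08 for complexes I to V. Core and accessory subunits of complex I were then at medians of 0.10 and 0.05. Atp5a1 and Atp5b were at -0.59 and -0.44, Atp5c1 at -0.30, Uqcrc2 at -0.42 and Ndufs1 at -0.35, while Cox6b2 was at 0.73 and Ndufa11 at 0.86. None of these passed (adjusted p of 0.369 for Atp5a1 and 0.487 for Atp5b, edgeR).

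Genes that serve the same pathway outside the complexes, with Ndufab1 of complex I also among them, were read from lists. Of 18 genes of the citric acid cycle and of the entry of pyruvate into it, 14 were negative (median log2 fold change -0.27), and 12 lay lower in CD34+ cells without overlap (66.7%, against 26.6% of all genes tested). The 14 genes of the cycle itself gave 9 of these, and the 4 of pyruvate entry (Pdha1, Pdhb, Dlat and Pcx) gave 3. Idh3a, a subunit of isocitrate dehydrogenase, was 27.2 and 40.4 CPM in CD34+ libraries, against 60.3 and 77.4 CPM in CD34- libraries, with a log2 fold change of -1.02 ± 0.30 (SE; edgeR, adjusted p = 0.23). Dlat, of the pyruvate dehydrogenase complex, was 24.6 and 29.4 CPM in CD34+ libraries, against 45.2 and 50.1 CPM in CD34- libraries. Of 16 genes for proteins of the mitochondrial membranes 15 were negative (median -0.38), 11 of the 12 carriers and channels and all 4 prohibitins and cristae proteins (Phb, Phb2, Immt and Chchd3). The outer membrane channel gene Vdac1 was 83.6 and 119 CPM in CD34+ libraries, against 221 and 192 CPM in CD34- libraries, with a log2 fold change of -1.01 ± 0.27 (SE; edgeR, adjusted p = 0.216), and Vdac2 was 172 and 172 CPM in CD34+ libraries, against 313 and 239 CPM in CD34- libraries. With the length trend taken out, the median was -0.25 for the first list and -0.33 for the membrane proteins.

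Assembly factors, which build the complexes without being part of them, were negative for 21 of 34 tested (median log2 fold change -0.12). Tmem70, an assembly factor of ATP synthase, was 18 and 31.2 CPM in CD34+ libraries, against 52.5 and 49.3 CPM in CD34- libraries, with a log2 fold change of -1.03 ± 0.31 (SE; edgeR, adjusted p = 0.23), and Cox15, which makes haem A for complex IV, was 11.7 and 16 CPM in CD34+ libraries, against 26.9 and 23.6 CPM in CD34- libraries. Electron carriers and quinone synthesis genes were evenly split, 8 of 16 positive (median 0.02). This list also held Ndufab1, a complex I subunit that the choice by name missed, and Atpif1, the inhibitor of ATP synthase. Their log2 fold changes were -0.10 and 0.13. Etfb, of the electron transfer flavoprotein, averaged 99.2 ± 5.14 CPM in CD34+ libraries and 57.5 ± 14.1 CPM in CD34- libraries, and Etfdh, which passes its electrons to ubiquinone, averaged 22.4 ± 9.64 CPM in CD34+ libraries and 34.6 ± 2.34 CPM in CD34- libraries (SD, n = 2 each). Among 15 regulators of mitochondrial biogenesis 11 were negative (median -0.13). Those of lowest p were positive: Myc was 238 and 236 CPM in CD34+ libraries, against 88.6 and 137 CPM in CD34- libraries, with a log2 fold change of 1.08 ± 0.33 (SE; edgeR, adjusted p = 0.23), and the coactivator gene Pprc1 was 59.2 and 43.9 CPM in CD34+ libraries, against 31.8 and 27.6 CPM in CD34- libraries. Of 8 genes tied to the response to low oxygen 7 were negative (median -1.04). Pdk1, which restrains pyruvate dehydrogenase, was 13.5 and 15.8 CPM in CD34+ libraries, against 53.3 and 36 CPM in CD34- libraries, and the glucose transporter gene Slc2a1 was 132 and 109 CPM in CD34+ libraries, against 380 and 328 CPM in CD34- libraries (log2 fold changes of -1.58 and -1.53, edgeR adjusted p of 0.171 for both). No gene of any of these lists passed over all genes tested (edgeR).

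Of the members, 27 overlap another annotated gene in the GRCm38.p6 tables. The strand setting of the counting is not stated, so reads of such pairs cannot be told apart. Among the members named here these include Atp5a1 with Haus1, Atp5d with Cbarp, Ndufa1 with Rnf113a1, Ndufa2 with Tmco6, Ndufs1 with Ino80dos, Uqcrc2 with Pdzd9, Uqcrq with Gdf9, Cox4i2 with Bcl2l1 and Cox6a2 with Itgad.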

How the data were processed

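Per the labels' protocols, RNA was isolated by Purelink and amplified by MessageAmp, which copies transcripts linearly from their poly(A) end; intervals therefore cover counting error only. Bowtie2, TopHat2, HTSeq, edgeR and mouse build mm9 are named in the submitters' processing notes without versions; annotation, strand setting and RPKM totals are not stated there. The authors deposited unnormalized whole-number counts per gene (22609 genes), RPKM for the same genes, and FPKM for 22558 genes, with the estimated counts of fragments behind the FPKM also deposited and rounded here. Per table, 14 other per-sample columns matched no sample of the series and were left unused. Members were matched to GRCm38.p6 tables, 80 by symbol and 4 by an older name.

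Counts were tested two-sided with edgeR 4.0.16 (R 4.3.3): quasi-likelihood test, TMM scaling, filterByExpr, group as the only term, Benjamini-Hochberg adjustment over 13875 genes at 0.05. The standard error is the fold change over the square root of F. An exact permutation test of 2 against 2 libraries cannot go below p = 0.333, and none was run. Alternatives used DESeq2 1.42.0, limma 3.58.1, other scalings, filters and units, a replicate block, each library left out, and a length trend. The fit was also run on simulated counts with the same dispersion for every gene. That run is not used for any result here, and the power to call the members was not tested. Named in each complex were the 2 members of highest RPKM, the 2 of lowest p per direction from 5 CPM, listed core subunits and tissue forms, members below the filter, and 2 genes of lowest p per list; others are said to be chosen later. The members, lists and rule were chosen with earlier results of these data known.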

Additional observations from a re-analysis of the deposited data

How the results depend on the processing

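The counts of members called were 0 higher and 0 lower in each of the 16 alternatives run. The median log2 fold change of the members was 0.22, and lay between 0.18 and 0.25 when 1 library was left out. It was 0.14 with no filter on low counts, where the median of all genes was 0.17. On the authors' scales it was -0.18 on log2 RPKM + 1, -0.19 on log2 RPKM + 0.1 and -0.23 on log2 FPKM + 1 (limma), where the median of all genes was -0.31, -0.42 and -0.31; members less all genes gave 0.12, 0.23 and 0.08. With the length trend as offsets, added after seeing the data, it was -0.06. Of the 23 positive members named by the rule, 11 turned on log2 RPKM + 1, 14 on log2 FPKM + 1 and 8 with the length trend, Cox8a, Uqcrh, Cox7a2 and Atp5g1 to Atp5g3 in each. Of the members given with a fold change, Sdhb turned to -0.16 and Cox4i1 to -0.15 on log2 RPKM + 1 and + 0.1. On log2 FPKM + 1, Ndufa3 was -0.04, Ndufs7 -0.06, Sdhb -0.27, Uqcrq -0.09, Cox6a1 -0.01, Cox4i1 -0.27, Atp5d -0.09 and Atp5e -0.09. On the estimated fragment counts behind the FPKM, with TMM scaling, all of these genes were positive. They ran from 0.18 (Sdhb and Cox4i1) to 0.46 (Cox6a1), and the median of the members was 0.22. With the length trend, Ndufa3 was -0.09, Cox4i1 -0.05 and Atp5e -0.04. Of the others named by the rule that turned there, Uqcrh was -0.38, Cox8a -0.21, Atp5g3 -0.20, Atp5g2 -0.06, Atp5g1 -0.02 and Cox7a2 -0.00. RPKM and FPKM were taken as deposited, without the TMM scaling of the edgeR fit. The cause of these turns was not tested. Over the alternatives Atp5a1 lay between -1.17 and -0.59 and Atp5b between -1.03 and -0.44.

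In a fit with a replicate block, edgeR called 0 members (39 genes higher and 23 lower over all genes), their median was 0.22, and the adjusted p of Atp5a1 was 0.172. Deviations of same-numbered libraries correlated at 0.241 over 13875 genes, but no label ties a number to shared animals, and 2 pairs cannot settle it. Where a library is left out, its group keeps a single library, whose spread is taken from the other group. Depth limits the tissue forms of complex IV below the filter, at 0 to 8 counts per library.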
